A study of Mus musculus with 18 samples.

Results

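Laminins are the large cross-shaped glycoproteins of basement membranes, and RNA of 10 of the genes that encode their chains was followed in mouse optic nerve head, where retinal ganglion cell axons leave the eye. The genes were the α chain genes Lama1, Lama2, Lama3, Lama4 and Lama5, the β chain genes Lamb1, Lamb2 and Lamb3, and the γ chain genes Lamc1 and Lamc3. They were listed by symbol and found by Ensembl identifier, and all 10 were present among the 55416 gene identifiers of the tables. Other laminin chain genes were not analysed here.

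Each laminin is a trimer of an α, a β and a γ chain that are wound together in the cell before secretion, and its name gives the numbers of its chains, so that laminin 211 holds α2, β1 and γ1. The α chain carries the globular domains that bind receptors, among them integrins and α-dystroglycan, and the short arms join trimers into the sheet to which nidogens, perlecan and type IV collagen are linked. In the optic nerve, basement membranes are known to lie around blood vessels and along the septa and the pial surface, where astrocyte end feet meet connective tissue.

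The tissue was cut from sections by laser capture microdissection, and its RNA was sequenced in 18 libraries. Labels gave 3 libraries of B6.EDA+/+ mice and 5 of C57BL/6J control mice at 22 months of age, and 5 of each at 12 months. As background, EDA+/+ mice carry a fibronectin gene engineered to include its extra domain A exon constitutively, and C57BL/6J is the common inbred strain used here as control. The labels name no sex, litter or batch and do not state that each library came from its own animal. Every p-value below therefore weighs a difference between groups against the spread between libraries, which may be technical in part.

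Libraries held 13097498 to 18488733 expected counts (reads as divided among genes by the authors' software), of which the 10 laminin genes took 2543 to 5459, or 0.0191% to 0.0346%. The estimated share of the extra domain A exon did not follow the labels. The share of fibronectin isoform abundance that held the exon was 0% to 12.6% in EDA-labelled and 0% to 100% in control-labelled libraries at 22 months. At 12 months it was 0% to 58.5% in EDA-labelled and 0% to 96.2% in control-labelled libraries. These shares rest on the authors' division of reads among isoforms. Reads over the exon itself were not counted, so the shares do not test the genotypes. Libraries are therefore called EDA-labelled and control-labelled, and each genotype difference is between labels. Xist was abundant in 5 libraries, of which 3 were EDA-labelled: 22-month library 1 and 12-month libraries 4 and 5. The others were control-labelled 12-month libraries 1 and 2, while control-labelled 22-month libraries had 0 to 41 Xist counts. Some libraries stood apart in marker RNA. EDA-labelled 12-month library 4 had the highest summed astrocyte marker level (24757 TPM, against 5781 to 12105 TPM in the other 17 libraries) and the lowest for basement membrane partners (2469 TPM). Sparc alone made up 2169 TPM of the latter sum. EDA-labelled 22-month library 1 had 275 TPM of skeletal muscle markers, against at most 4.75 TPM in any control-labelled library. Control-labelled 22-month library 2 had 4514 TPM of photoreceptor markers. Oligodendrocyte markers summed to 22387 TPM in EDA-labelled 12-month library 3 and 22877 TPM in control-labelled 22-month library 3, against at most 6343 TPM in the other 16. EDA-labelled 12-month library 3 also had the highest sum of pericyte and smooth muscle markers, at 3202 TPM, of which Cnn1 alone made up 2979 TPM. EDA-labelled 22-month library 3 had the fewest genes with 10 or more counts, at 9703 in a range up to 13048. It also had the fewest laminin counts, at 2543.

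In level, the β2 and γ1 chain genes were the highest of the β and γ chain genes in every library. Levels are the authors' TPM, transcript abundance scaled by transcript length and library total, which can be compared between genes. Lamb2, whose β2 chain is known from vascular, kidney and synaptic basement membranes, averaged 33.4 ± 14.9 TPM (SD, n = 18). Lamc1, whose γ1 chain is part of most known laminins, averaged 21.5 ± 6.45 TPM (SD, n = 18). Lamb2 exceeded Lamb1 in 18 of 18 libraries, and Lamc1 was the highest γ chain gene in 18 of 18.

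The order of the α chain genes depended on which annotated isoforms were counted. With all isoforms of a gene summed, Lama2, whose α2 chain is the laminin chain of muscle and peripheral nerve and is lost in a congenital muscular dystrophy, averaged 21.4 ± 8.30 TPM (SD, n = 18). Lama5, whose α5 chain is widespread in mature vessel and epithelial basement membranes, averaged 5.42 ± 1.84 TPM (SD, n = 18). On that scale Lama2 exceeded Lama5 in 18 of 18 libraries. With only isoforms at least 50% as long as the longest of their gene, here called long-isoform TPM, Lama2 averaged 1.64 ± 1.25 TPM and Lama5 5.40 ± 1.83 TPM (SD, n = 18 each), and Lama2 exceeded Lama5 in 0 of 18. By reads per kilobase of the longest isoform, scaled to library size without any isoform estimate, Lama2 averaged 3.34 ± 1.10 and Lama5 3.78 ± 1.18 (SD, n = 18 each), with Lama2 higher in 7 of 18.

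The 2 genes differed in how isoforms shared their TPM. An annotated Lama2 isoform of 643 nt with a retained intron held 44.1% of the gene's mean TPM on 10.6% of its reads. The 9614 nt isoform that codes for the whole chain held 7.67% of the TPM on 34% of the reads, and ran from 0.09 to 4.38 TPM over the 18 libraries. In Lama5 the 11388 nt coding isoform held 99.7% of the TPM. Lamb2 and Lamc1 lay between them: the 5629 nt Lamb2 isoform held 46.4% of TPM and 94.6% of reads, and the 7622 nt Lamc1 isoform 74.1% of TPM and 96.5% of reads. How reads fell along the transcripts was not measured, so whether the short isoforms exist as RNA in this tissue was not tested.

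**Figure D1:**
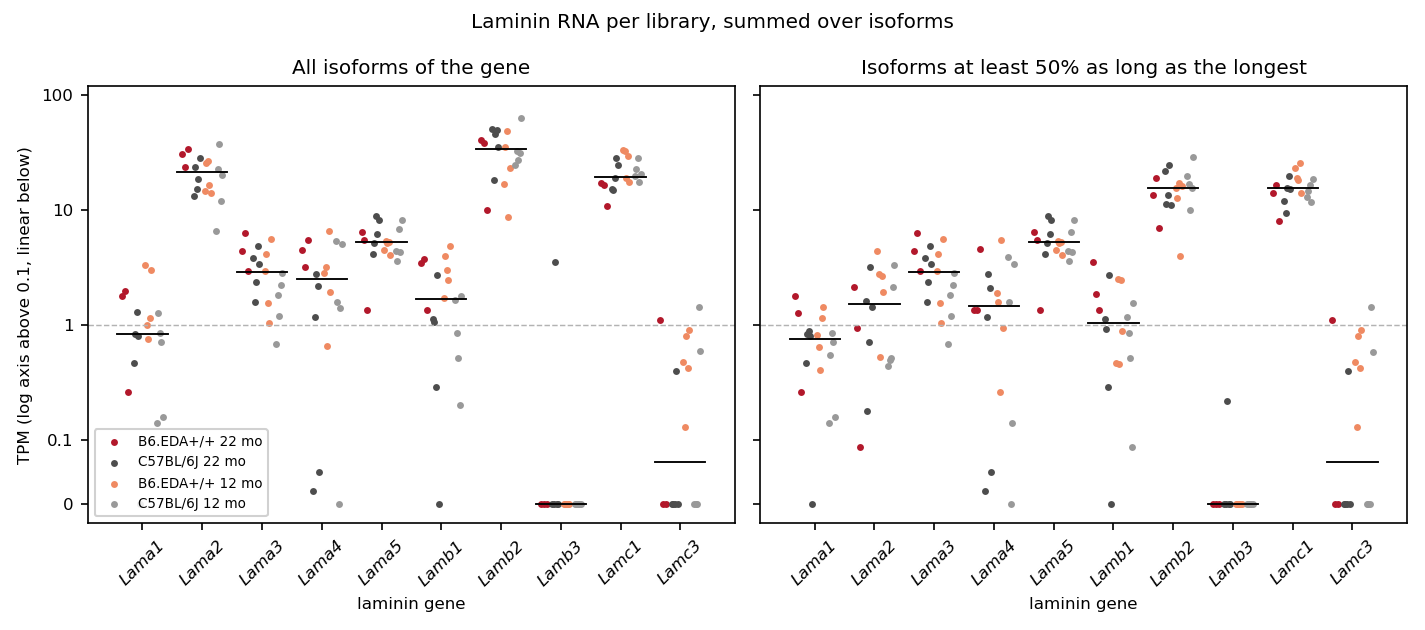
TPM of each laminin gene in each of 18 libraries, on an axis that is logarithmic above 0.1 and linear below, for all isoforms (left) and for isoforms at least 50% as long as the longest (right). Each point is a library, coloured by labelled group, black bars are medians over the 18 and the dashed line is 1 TPM. Lama2 lies near Lamc1 on the left and below Lama5 on the right, while Lama5 hardly moves between the panels. The 2 annotated Lama3 isoforms both pass the length limit, so Lama3 cannot move beyond rounding.

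The other α chain genes were lower. Lama3, whose α3 chain is known from epithelial basement membranes, averaged 2.99 ± 1.62 TPM, Lama4, whose α4 chain is known from endothelial and mesenchymal basement membranes, 2.68 ± 2.05 TPM, and Lama1, whose α1 chain is known from embryonic membranes and the inner surface of the retina, 1.10 ± 0.927 TPM (SD, n = 18 each). These neighbours were not well separated. Lama3 exceeded Lama4 in 12 of 18 libraries, while Lama5 exceeded Lama3 in 15 and Lama1 exceeded Lamc3 in 14. Lama1 and Lama4 were listed at 0 counts in 1 library each.

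By long-isoform TPM the highest α chain gene was Lama5 in 14 libraries, Lama3 in 2 and Lama4 in 2. Lama3 led in EDA-labelled 22-month library 2 and EDA-labelled 12-month library 5. Lama4 led in EDA-labelled 22-month library 3 and EDA-labelled 12-month library 4. All 4 exceptions were EDA-labelled, and the difference in this count between labels was not tested.

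Lama3 is known to give a short α3A and a long α3B chain from separate starts. The 10548 nt isoform was above 0 in 18 of 18 libraries, with 0.53 to 5.57 TPM and a median of 2.20 TPM. The 5551 nt isoform was above 0 in 7 libraries, with at most 2.21 TPM, and listed at 0 in 11. By the authors' division of reads, the long isoform took 88.3% of the gene's reads over the 18 libraries together. The 5551 nt isoform was the higher in EDA-labelled 22-month library 3, at 1.89 against 1.05 TPM. It was also the higher in control-labelled 12-month libraries 2 (0.94 against 0.90 TPM) and 3 (0.67 against 0.53 TPM).

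Among β chain genes, Lamb1, whose β1 chain takes the place of β2 in trimers such as laminins 211 and 511, averaged 1.94 ± 1.45 TPM (SD, n = 18) and was listed at 0 counts in 1 control-labelled 22-month library. Lamb3, whose β3 chain belongs to the epithelial laminin 332, was listed at 0 counts in 17 of 18 libraries. The exception was control-labelled 22-month library 3 with 15 counts, which gave 3.51 TPM over all isoforms but 0.22 TPM over long isoforms. A count of 0 allows up to 3 counts, or 0.162 to 0.229 CPM (counts scaled to library size) in these libraries, for counting error only. Surface epithelium markers were near 0 as well, at 0 to 2.00 TPM summed over 9 genes, with the keratin genes Krt5, Krt14 and Krt15 and the adhesion gene Epcam at 0 in 18 libraries.

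Lamc3, whose γ3 chain is known from retina, nerve and skin, averaged 0.349 ± 0.455 TPM (SD, n = 18). It was listed at 0 counts in 9 libraries and reached 1 TPM in 2, namely EDA-labelled 22-month library 1 with 1.11 TPM and control-labelled 12-month library 4 with 1.44 TPM. Lamc1 made up 92.4% to 100% of the summed TPM of the 2 γ chain genes.

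The chain genes at 1 TPM or more set which trimers the RNA allowed, and a trimer was counted in a library when each of its chain genes reached 1 TPM. This says nothing of assembled protein. Of 13 known trimers built from the 10 genes, laminins 221 and 521 were allowed in 18 of 18 libraries, laminin 321 in 17 and laminin 421 in 14. With β1 in place of β2, laminins 211 and 511 were allowed in 13 libraries, 311 in 12 and 411 in 11. The α1 laminins 121 and 111 were allowed in 8 and 6. Trimers with γ3 were rare, at 2 libraries each for 423 and 523 and 1 library for 213.

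By long isoforms most trimers were allowed in fewer libraries, with the largest falls in number of libraries for the α2 laminins 221 and 211. Laminin 221 was then allowed in 10 libraries and laminin 211 in 6, while 521 remained at 18 and 321 at 17. The 2 annotated Lama3 isoforms both pass the length limit, so the count for 321 could fall only through Lamb2 or Lamc1. Laminin 421 was allowed in 12, 511 in 9, 311 and 411 in 8 each, 121 in 4 and 111 in 3. The chain at the lowest level in laminins 521, 321 and 421 was always the α chain by all-isoform TPM, and Lamb1 was the lowest chain of laminin 211 in 18 of 18 libraries. Of laminin 332 only the α3 and β3 genes were followed, and both reached 1 TPM in 1 library by all isoforms and in 0 by long isoforms.

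A library allowed 3 to 13 of the 13 trimers, with a median of 8, and had a median of 7 of the 10 genes at 1 TPM or more. At 22 months the 3 EDA-labelled libraries allowed 13, 10 and 8 trimers, against 6, 8, 5, 8 and 3 in the control-labelled libraries. At 12 months EDA-labelled libraries allowed 10, 10, 6, 10 and 10, against 6, 5, 3, 6 and 8 in control-labelled libraries. Groups met or overlapped at each age. By long isoforms EDA-labelled libraries allowed 13, 8 and 6 at 22 months, against 6, 3, 3, 8 and 3 in control-labelled libraries. At 12 months these counts were 4, 8, 2, 10 and 4 in EDA-labelled libraries, against 4, 3, 2, 4 and 8 in control-labelled libraries. These counts turn on genes near 1 TPM, among them Lama1, Lama4 and Lamb1 and, by long isoforms, Lama2, and no test was made on them. A fixed threshold in TPM also depends on the share of counts taken by 1 abundant gene identifier, ENSMUSG00000119584. It took 3.26% to 32.8% of the expected counts over the 18 libraries. That share reached higher in control-labelled libraries at both ages, and its part in the trimer counts was not tested.

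**Figure D2:**
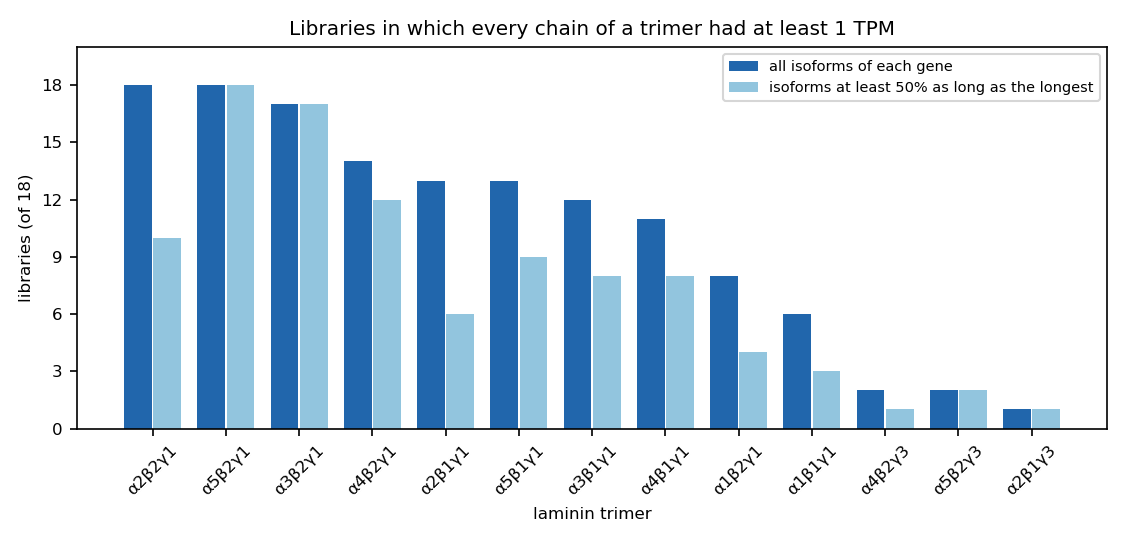
Number of the 18 libraries (vertical axis) in which every chain gene of a laminin trimer (horizontal axis) had at least 1 TPM, with all isoforms summed (dark bars) or isoforms at least 50% as long as the longest (light bars). α5β2γ1 is at 18 by both, α2β2γ1 is at 18 and 10, and trimers with γ3 are at 2 or fewer.

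The genotype comparison asks whether laminin RNA differed in optic nerve head of mice labelled B6.EDA+/+. For comparisons between groups, counts were scaled to CPM with TMM factors. At 22 months no laminin gene was called: 0 of 9 tested members passed an adjusted p of 0.05 in edgeR's quasi-likelihood test, as did 0 of all 15118 genes tested (0%). Lamb3 was too low to test. At an unadjusted p under 0.05 there were 0 members, against 3.96% of all genes, and DESeq2 called 0 members and 47 genes in all. Of the 9, 6 had a log2 fold change above 0 with a median of 0.25, against a median of -0.07 over all genes, and all 9 overlapped between the groups, where 2.75% of all genes did not.

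Lama5 had the smallest p of the members at 22 months. It had 44.7, 40.4 and 15.5 CPM in EDA-labelled libraries, against 39.6, 51.2, 63.7, 43.9 and 71.9 CPM in control-labelled libraries. EDA-labelled library 3 was the lowest of the 8, and the other 2 lay at the lower end of the control-labelled range. Its log2 fold change was -0.69 ± 0.38 (SE), with an unadjusted p of 0.0885 and an adjusted p of 1 (edgeR; 0.618 to 1 over all alternatives). Without EDA-labelled library 3, which had the fewest genes with 10 or more counts of all libraries, the log2 fold change was -0.34.

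Lama4 varied widely between libraries at 22 months. It had 9.76, 8.05 and 30.2 CPM in EDA-labelled libraries, against 0.0787, 6.03, 10.6, 7.90 and 0.222 CPM in control-labelled libraries. Of the control-labelled libraries, 2 were near 0, and EDA-labelled library 3 was far above the rest. The 95% interval of its log2 fold change, 1.69 ± 1.26 (SE), ran from -0.93 to 4.30. Leaving out 1 library at a time it ran from 0.84, without EDA-labelled library 3, to 2.17, without control-labelled library 3. By all-isoform TPM the groups did not overlap, with 3.19 to 5.50 TPM in EDA-labelled and 0.02 to 2.81 TPM in control-labelled libraries. By long isoforms they did, with 1.34 to 4.59 TPM in EDA-labelled and 0.02 to 2.81 TPM in control-labelled libraries. The share of all genes without overlap was counted on CPM (2.75%) and not on TPM.

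Lamb1 had 12.2, 7.70 and 7.56 CPM in EDA-labelled libraries, against 5.43, 4.46, 1.00, 9.57 and 0 CPM in control-labelled libraries. The EDA-labelled values all lay above 4 of the 5 control-labelled ones. On the log2 scale the difference was 1.16 ± 1.08 (SE; 95% interval -1.09 to 3.41), and 0.84 to 1.75 on leaving out 1 library at a time. In the same comparison edgeR called 0 genes of the marker lists for other cell types. The summed level of fibroblast and meningeal markers was 474 to 814 TPM in EDA-labelled and 293 to 491 TPM in control-labelled libraries, with 7 of 10 genes above 0 on the log2 scale. Lum and Pdpn had the highest medians of that list in both groups, with Pdpn up to 675 TPM in EDA-labelled and 289 TPM in control-labelled libraries. Col1a2 ran from 23.6 to 79.7 TPM in EDA-labelled and from 54.8 to 79.8 TPM in control-labelled libraries. Endothelial markers summed to 168 to 290 TPM in EDA-labelled and 127 to 226 TPM in control-labelled libraries, with 9 of 11 above 0. Oligodendrocyte markers summed to 646 to 3391 TPM in EDA-labelled and 566 to 22877 TPM in control-labelled libraries, with 0 of 8 above 0 and a median log2 fold change of -1.70. Photoreceptor markers summed to 52.6 to 169 TPM in EDA-labelled and 6.31 to 4514 TPM in control-labelled libraries, with 1 of 8 tested genes above 0 and a median of -3.20. Their part in the laminin values was not tested, and in bulk RNA fewer cells of a type and less RNA per cell cannot be told apart.

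The more abundant chains were measured more closely. Lamc1 had 67.2, 80.7 and 64.6 CPM in EDA-labelled libraries, against 78.6, 66.0, 76.2, 97.8 and 95.7 CPM in control-labelled libraries, with a fold of 0.855 (95% interval 0.564 to 1.30). Lamb2 had 51.2, 70.8 and 40.7 CPM in EDA-labelled libraries, against 107, 55.9, 52.5, 89.5 and 55.1 CPM in control-labelled libraries, with a fold of 0.753 (0.406 to 1.40). For Lama2 the fold was 1.15 (0.631 to 2.09). All 3 genes overlapped between the groups, and all 3 intervals include a fold of 1. Lama3 (0.25 ± 0.54 on the log2 scale), Lama1 (0.78 ± 1.01) and Lamc3 (2.15 ± 2.14) were no clearer.

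**Figure D3:**
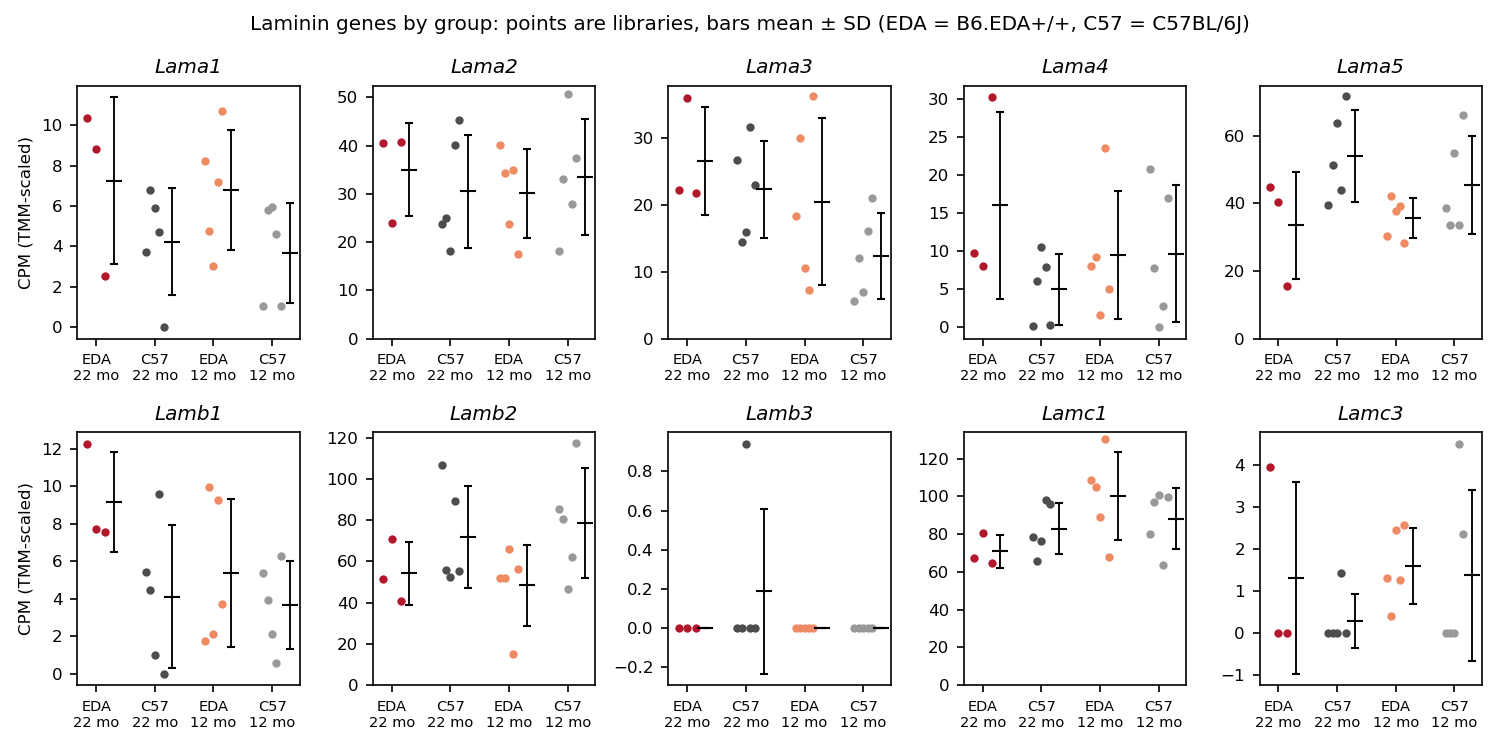
CPM (TMM-scaled, vertical axis) of each laminin gene by labelled group, with points for libraries and bars for the mean ± SD, at 22 months (3 EDA-labelled, 5 control-labelled) and at 12 months (5 and 5). The groups overlap in every panel, and EDA-labelled 12-month library 4 is the low point of Lamb2 at 15.1 CPM and the high point of Lamc1 at 130 CPM.

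At 12 months 0 of 9 tested members were called by edgeR, as were 0 of 15118 genes (0%), with 0 members and 4.56% of genes at an unadjusted p under 0.05. DESeq2 called 0 members and 32 genes in all. The members' median log2 fold change was 0.18, with 5 of 9 above 0, against -0.01 over all genes, and all members overlapped between groups, where 1.26% of genes did not.

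Lamb2 had the smallest p at this age. It had 52.0, 52.1, 66.2, 15.1 and 56.5 CPM in EDA-labelled libraries, against 85.6, 80.7, 46.6, 62.0 and 117 CPM in control-labelled libraries. EDA-labelled library 4 was the lowest of the 10, and 3 of the 5 control-labelled libraries lay above every EDA-labelled one. This gave a log2 fold change of -0.70 ± 0.37 (SE; 95% interval -1.46 to 0.07), with an unadjusted p of 0.0713 and an adjusted p of 1 in edgeR (0.506 to 1 over all alternatives). Without EDA-labelled library 4, which stood apart in its astrocyte markers, it was -0.47, and without control-labelled library 5 it was -0.51.

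Lama3 had 18.3, 30.0, 10.5, 7.19 and 36.2 CPM in EDA-labelled libraries, against 5.56, 12.1, 6.89, 16.1 and 20.9 CPM in control-labelled libraries. The ranges overlapped, with the 2 highest values EDA-labelled. The difference was 0.73 ± 0.48 on the log2 scale (SE; 95% interval -0.26 to 1.72). Lamc1 had 108, 105, 89.2, 130 and 67.7 CPM in EDA-labelled libraries, against 80.2, 97.2, 101, 63.4 and 99.5 CPM in control-labelled libraries, and its fold of 1.14 (95% interval 0.794 to 1.62) was the most tightly bounded of the members.

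Lama5 had 28.4 to 42.2 CPM in EDA-labelled libraries with a median of 37.6, against 33.4 to 66.0 CPM with a median of 38.5 in control-labelled libraries, and a log2 fold change of -0.35 ± 0.33 (SE). Lama2 averaged 30.1 ± 9.24 CPM in EDA-labelled and 33.4 ± 12.0 CPM in control-labelled libraries (SD, n = 5 each; fold 0.901, 95% interval 0.535 to 1.52). The low genes could not be judged: Lama4 was at -0.03 ± 1.11, Lama1 at 0.88 ± 0.90, Lamb1 at 0.56 ± 0.96 and Lamc3 at 0.22 ± 1.88 on the log2 scale (SE). Lama4 alone ran from 1.62 to 23.6 CPM in EDA-labelled and from 0 to 20.8 CPM in control-labelled libraries.

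The balance of the 2 main β chains was also described by label. Lamb1 as a share of the TPM of Lamb1 and Lamb2 was 7.91%, 8.93% and 11.9% in EDA-labelled libraries at 22 months, against 2.19%, 5.46%, 0.633%, 5.24% and 0% in control-labelled libraries. At 12 months it was 9.32%, 10.1%, 5.78%, 22.1% and 17.3% in EDA-labelled libraries, against 6.28%, 2.55%, 1.86%, 0.635% and 2.76% in control-labelled libraries. The groups did not overlap at 22 months, and at 12 months only EDA-labelled library 3 fell below the highest control-labelled value. This share was looked at after the values were seen, and no test was made on it. How often other ratios of 2 genes fail to overlap between these groups was not counted.

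By long isoforms the share was 20.7%, 8.96% and 16.2% in EDA-labelled libraries, against 4.99%, 7.64%, 2.08%, 10.0% and 0% in control-labelled libraries at 22 months, which overlapped. At 12 months it was 2.91%, 16.5%, 2.59%, 38.3% and 5.24% in EDA-labelled libraries, against 5.61%, 4.87%, 4.97%, 0.571% and 5.11% in control-labelled libraries. There 2 EDA-labelled libraries lay above all others and 2 lay below 4 of the control-labelled ones. An annotated Lamb1 isoform of 386 nt held 31.3% of the gene's mean TPM on 1.91% of its reads. By expected counts the share at 22 months was 9.82% to 19.3% in EDA-labelled and 0% to 9.66% in control-labelled libraries, which nearly met. At 12 months it was 3.06% to 38.1% in EDA-labelled and 0.864% to 5.9% in control-labelled libraries, which overlapped.

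Age was compared within each label, where the 22- and 12-month libraries are the same groups as above and the comparisons are thus not independent of those by genotype. In control-labelled libraries edgeR called 0 of 9 tested members and 0 of 15118 genes (0%), with 0 members and 3.51% of genes at an unadjusted p under 0.05, and DESeq2 called 0 members and 31 genes in all. Lama3 had 26.6, 14.4, 15.9, 31.6 and 22.9 CPM at 22 months, against 5.56, 12.1, 6.89, 16.1 and 20.9 CPM at 12 months. Every 12-month value lay below the 22-month median of 22.9 CPM, and the ranges overlapped. The 12-month libraries at 5.56 and 12.1 CPM were those with abundant Xist, which no 22-month library of this label had. Over all alternatives, a covariate of Xist less Y-linked RNA among them, the log2 fold change ran from 0.67 to 1.13. The difference was 0.86 ± 0.48 on the log2 scale (SE; 95% interval -0.14 to 1.85), with an unadjusted p of 0.0872 and an adjusted p of 1 (edgeR; 0.597 to 1 over all alternatives). The other 8 members lay between -2.20 ± 1.97 for Lamc3 and 0.26 ± 0.33 for Lama5 (log2 fold changes with SE).

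In EDA-labelled libraries edgeR again called 0 of 9 members and 0 of 15118 genes by age (0%), with 0 members and 4.98% of genes at an unadjusted p under 0.05, and DESeq2 called 0 members and 51 genes in all. Lamc1 had 67.2, 80.7 and 64.6 CPM at 22 months, against 108, 105, 89.2, 130 and 67.7 CPM at 12 months. Of the 12-month libraries, 4 lay above every 22-month one. Its log2 fold change was -0.50 ± 0.29 (SE; 95% interval -1.11 to 0.11), with an unadjusted p of 0.102 and an adjusted p of 0.962 (edgeR; 0.558 to 1 over all alternatives). In control-labelled libraries the same contrast for Lamc1 was -0.09 ± 0.25.

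Whether the genotype difference itself differed by age was tested as an interaction. By edgeR it was called for 0 of 9 members and 0 of 15118 genes (0%), with 0 members and 4.02% of genes at an unadjusted p under 0.05, and DESeq2 called 0 members and 42 genes in all. Estimates ran from -0.48 ± 0.73 for Lama3 to 1.93 ± 2.84 for Lamc3 on the log2 scale (SE).

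**Figure D4:**
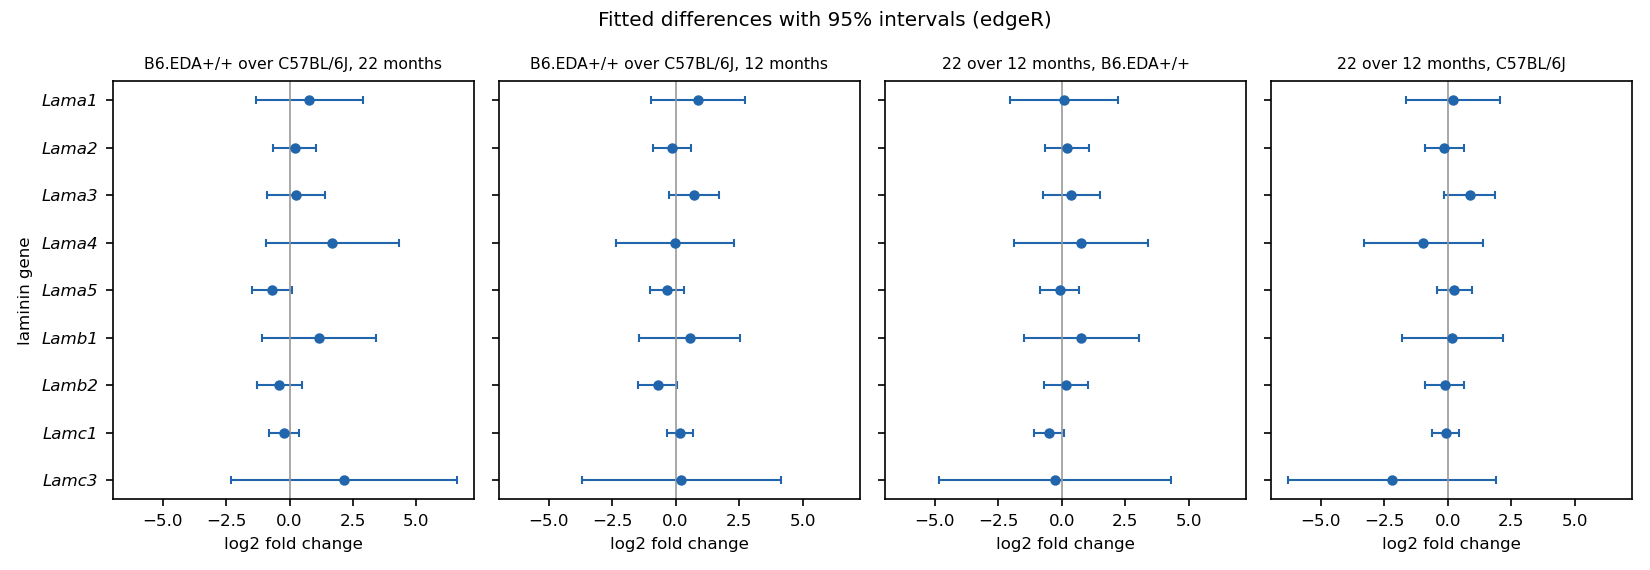
Log2 fold change (horizontal axis) with its 95% interval for the 9 tested laminin genes in 4 comparisons, fitted by edgeR: EDA-labelled over control-labelled at 22 and at 12 months, and 22 over 12 months within each label. All intervals include 0, and they are narrowest for Lamc1, Lamb2, Lama2 and Lama5 and widest for Lamc3.

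Several laminin receptor genes had higher median levels than any chain gene. Itgb4, whose β4 integrin chain pairs with α6 in anchoring junctions of epithelia and in Schwann cells and vessels, ran from 202 to 948 TPM with a median of 497 TPM. Dag1, which encodes both dystroglycan subunits and is concentrated at astrocyte end feet, ran from 73.4 to 165 TPM with a median of 112 TPM. Itga3 and Itga6, the α chains of the main laminin-binding integrins, had medians of 108 and 28.8 TPM, and Itgb1, their common β partner, 50.2 TPM. By long isoforms the median of Itga3 was 47.4 TPM. Itga2 was listed at 0 in 10 libraries and the syndecan gene Sdc1 in 13.

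Of 14 receptor genes 13 were tested, and edgeR called 0 at either age. The median log2 fold change was 0.16 at 22 months and 0.31 at 12 months. Mcam, an adhesion molecule of vessels that binds laminin α4, had 45.2, 39.8, 62.6, 59.6 and 22.7 CPM in EDA-labelled libraries at 12 months, against 15.6, 9.69, 30.6, 14.2 and 15.5 CPM in control-labelled libraries. Only 1 control-labelled library exceeded the lowest EDA-labelled one. The log2 fold change was 1.43 ± 0.40 (SE), with an unadjusted p of 0.00195 and an adjusted p of 1 in edgeR. At 22 months it was -0.44 ± 0.46, with 24.4, 15.4 and 40.2 CPM in EDA-labelled and 18.8 to 50.8 CPM in control-labelled libraries.

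Itga3 was at 0.66 ± 0.36 at 22 months and 0.56 ± 0.32 at 12 months, Cd151, a tetraspanin that binds laminin-binding integrins, at 0.65 ± 0.56 at 22 months, and Itgb4 at -0.38 ± 0.29 at 12 months (log2 fold changes with SE). Itga2, a collagen and laminin receptor chain, was listed at 0 counts in the 3 EDA-labelled libraries at 22 months, against 0.394, 0, 2.69, 0.957 and 6.01 CPM in the control-labelled ones. Its unadjusted p of 0.0229 had an adjusted p of 1 in edgeR.

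α-Dystroglycan binds laminin through a sugar chain built by a series of enzymes. A list of 19 genes held those enzymes, related glycosyltransferases and the dystrophin complex. Of these, 18 were tested and edgeR called 0 at either age, with medians of -0.08 at 22 months and 0.10 at 12 months. Those with the smallest p at 22 months were the glycosyltransferase genes Rxylt1 (-2.82 ± 1.55), B4gat1 (-1.99 ± 1.56) and B3galnt2 (-1.90 ± 1.56), all at or below 2.89 CPM in EDA-labelled libraries. Among those with the smallest p at 12 months were Pomgnt1 (0.49 ± 0.39), a related glycosyltransferase gene, and Utrn (-0.55 ± 0.51), a relative of dystrophin (log2 fold changes with SE).

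Of 22 other basement membrane genes 21 were tested, and edgeR called 0 at either age. Their median was 0.32 at 22 months with 13 above 0, and -0.33 at 12 months with 5 above 0. Hspg2, which encodes perlecan, had 122, 90.6 and 168 CPM in EDA-labelled libraries at 22 months, against 40.5, 53.0, 72.8, 81.9 and 92 CPM in control-labelled libraries. At 12 months it had 62.7, 105, 66.6, 182 and 77.9 CPM in EDA-labelled libraries, against 38, 66.2, 61.4, 63.3 and 70.7 CPM in control-labelled libraries. At 22 months 2 EDA-labelled values lay above every control-labelled one, and at 12 months 3 did, while EDA-labelled 12-month libraries 1 and 3 lay within the control-labelled range. Its log2 fold change was 0.90 ± 0.37 at 22 months (SE; unadjusted p of 0.0263) and 0.72 ± 0.33 at 12 months (unadjusted p of 0.0419), both with an adjusted p of 1 in edgeR.

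Fbln1, a fibulin that binds laminin and nidogen, was at 1.26 ± 0.64 at 22 months, where EDA-labelled libraries had 169, 172 and 623 CPM, against 26.8 to 318 CPM in control-labelled libraries. Smoc2, a matricellular protein gene, was at 4.55, 6.67 and 0 CPM in EDA-labelled libraries, against 0, 0, 0, 0.359 and 0 CPM in control-labelled libraries, too low to judge. At 12 months Nid1, which encodes the nidogen that joins laminin to type IV collagen, was at -0.78 ± 0.44 and Col4a1 at 0.58 ± 0.40 (log2 fold changes with SE). The low point of Nid1 was again EDA-labelled library 4, at 17.6 CPM.

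The genes whose log2 CPM followed Lamb2, Lamc1 and Lama2, the 3 members highest in all-isoform TPM, most closely over the 18 libraries were listed among 7189 genes, as a description, since all points share library depth and composition. For Lamb2 they included Cdk5rap2, Naa35, Prrx1 and Ap3b1, with Pearson r of 0.89 to 0.90. Leaving out the 2 libraries farthest from the Lamb2 median, EDA-labelled 12-month library 4 and control-labelled 12-month library 5, the r of Cdk5rap2 was 0.68 over 16 libraries. For Lamc1 they were Camsap2 (r = 0.83, and 0.81 without 2 libraries), mt-Atp6, Ahctf1, Wee1 and Dapk2. For Lama2 they were Adgrl4, an endothelial receptor gene (r = 0.77, and 0.68 without 2 libraries), Apoe, Sssca1, Dagla and Gtf3c6.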

How the data were processed

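RNA of laser-captured mouse optic nerve head was measured in 18 libraries, grouped by the genotype and age in their titles. Replicates were numbered in accession order, so none were paired. Per the labels' protocols, cDNA was made with SMART-Seq v4 and Nextera XT, which keep no strand. STAR placed the reads on the genome, and RSEM estimated abundance. The build GRCm39 is named in the submitters' processing notes, but the sources used here give neither tool versions nor the annotation. RSEM divides reads among isoforms and similar genes, so these values are estimates.

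Gene values as deposited are the authors' expected counts, of which 3.59% were not whole, and these were rounded for tests. The deposited gene and isoform tables also hold the authors' TPM values, used for levels. Symbols for 52083 of 55416 identifiers, isoform types and the position of the fibronectin exon came from GENCODE M21, which is on GRCm38, so no coordinates are given. By that annotation the members lie on chromosomes 17 (Lama1), 10 (Lama2 and Lama4), 18 (Lama3), 2 (Lama5 and Lamc3), 12 (Lamb1), 9 (Lamb2) and 1 (Lamb3 and Lamc1). The exon share is the TPM of 4 fibronectin isoforms with the exon over that of 8 that hold its neighbours.

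Genes kept by filterByExpr (15118) were scaled by TMM and fitted in edgeR 4.0.16 (robust quasi-likelihood, a mean per group, two-sided), with Benjamini-Hochberg adjustment over all 15118 and a threshold of 0.05. The pipeline was tested on simulated data. Libraries of 1 group always differed beyond sampling noise (lowest chi-square per degree of freedom 42.8). Alternatives were DESeq2 1.42.0, its size factors, other filters, fewer libraries, a covariate of Xist less Y-linked RNA and leaving out each library. Long-isoform levels, the exon share and the β chain share were added after the data were seen. The members and gene lists were chosen with earlier results of these data known. All members were named, and of each other list up to 3 genes with the smallest p at each age, some of which are not reported here. Lists are described by counts and medians, without a test of the list.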

Additional observations from a re-analysis of the deposited data

Results flagged for a closer look

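In 26 combinations of a member and a group of 5 libraries, 2 had an extreme library, where chance alone would flag about 1 in 20. Gaps and ranges were taken on log2 CPM, with a small constant added so that 0 has a value, and not on the CPM printed here. Lamb2 was 15.1 CPM in EDA-labelled 12-month library 4, against 52.0 to 66.2 CPM in the other 4 libraries of its group. The gap was 0.836 of the group's range on log2 CPM. This library also stood apart in its astrocyte (24757 TPM) and basement membrane partner (2469 TPM) sums, the latter mostly Sparc (2169 TPM). Of that list, Nid1 was lowest and Hspg2 highest in this library among the 12-month libraries. The part of these sums in the Lamb2 value was not tested. Lama1 was 0 CPM in control-labelled 22-month library 5, against 3.70 to 6.81 CPM in the other 4. The gap was 0.849 of the range on log2 CPM, where 0 counts stood at -2.90, so it depends on the constant added. Lamb1 was listed at 0 in that library as well, which had 3 of the 13 trimers at 1 TPM.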

How the results depend on the processing

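No laminin gene was called under any alternative, DESeq2 included, and the fold changes of 36 gene and comparison pairs reversed in 3 of 210 settings other than leaving out a library and in 30 of 324 that left one out. The 3 were Lama4 at 12 months, at 0.027 without a filter on low counts and at 0.0034 when only genes averaging 2 log2 CPM or more were tested, and Lamc3 at 12 months, at -0.19 with the covariate for Xist and Y-linked RNA. Counts over all genes moved with DESeq2, which called 47 by genotype at 22 months, 32 by genotype at 12 months, 31 by age in control-labelled and 51 by age in EDA-labelled libraries, and 42 for the interaction. By genotype at 12 months the filter on mean level gave 1 called gene, and leaving out a library gave 0 to 1, with the 1 reached without EDA-labelled library 4. In both cases the gene was Actn1, which encodes an α-actinin and is named after its values were seen. The median number of trimers per library was 4 at a threshold of 2 TPM and 4 by long isoforms, an alternative chosen after seeing the data, against 8. It was 10 at 0.5 TPM and with 10 counts in place of 1 TPM.

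Leaving out each library in turn, log2 fold changes that changed sign ran as follows. By genotype at 22 months Lama3 ran from -0.027 to 0.41 and Lamc3 from -5.15 to 7.30. By genotype at 12 months Lama2 ran from -0.31 to 0.073, Lama4 from -0.69 to 0.46 and Lamc3 from -0.10 to 1.43. By age in EDA-labelled libraries Lama1 ran from -0.25 to 0.50, Lama4 from -0.093 to 1.42, Lama5 from -0.35 to 0.26, Lamb2 from -0.077 to 0.34 and Lamc3 from -7.58 to 0.30. By age in control-labelled libraries Lama1 ran from -0.040 to 0.52, Lama2 from -0.32 to 0.061, Lamb1 from -0.42 to 0.49 and Lamb2 from -0.31 to 0.066. The cause of these shifts was not tested. Lamc3 rests on 0 to 83 counts per library and Lamb3 on 15 counts in 1 library, so depth limits what can be said of them. No paired analysis was possible because the labels give the groups no shared replicate numbers.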
